A study of Mus musculus with 8 samples.

Results

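The genes described here are those that handle glutathione, thioredoxin and peroxides, with the enzymes of quinone, carbonyl and epoxide metabolism that are usually studied beside them. They were chosen by symbol, with earlier results of these data known. The symbol began with Gst, Mgst, Gpx, Prdx, Txn, Glrx, Sod, Msr or Sesn and went on with letters or digits, or was one of Gclc, Gclm, Gss, Gsr, Srxn1, Cat, Nqo1, Ggt7, Ephx1, Cbr1, Cbr3, Ugdh, Esd and Park7. This gave 69 of the 12339 genes in the deposited table, each with 1 row, all protein-coding in GENCODE M21. Glrx, whose symbol stops at the prefix, and the pseudogene Gpx4-ps2, whose symbol holds a hyphen, fell outside the rule. Every deposited gene had a mean of at least 2.001 FPKM over the libraries, so a member of these families below that level is not analysed here.

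RNA was taken from mouse retina at postnatal day 14 of oxygen-induced retinopathy (OIR), a model in which pups are exposed to high oxygen and then returned to room air. In RiboTag mice, Cre switches a ribosomal protein to an epitope-tagged form, and the tagged ribosomes of one cell type, here Müller glia, are pulled down with their RNA. The groups were 4 libraries with a Müller-specific conditional knockout of Nrf2 (cKO) and 4 wild-type (WT) libraries, numbered 1, 3, 4 and 5 in both, and all 8 carried the OIR treatment. The Cre driver, the deleted exon, and the sex and number of animals behind a library are not given in the sources used here, nor is what the WT animals carried beside their wild-type Nrf2, and p-values therefore reflect the spread over these libraries only, which may be technical.

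As background, glutathione is a small thiol made from glutamate, cysteine and glycine, and it is the main soluble reductant of most cells. Glutathione peroxidases and peroxiredoxins remove peroxides with electrons from glutathione or thioredoxin, and reductases return both to the reduced form with NADPH. Nrf2, a transcription factor held back by Keap1, binds antioxidant response elements and switches on many of these genes in other tissues. Müller cells span the retina and supply neurons with glutathione precursors.

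The targeted gene was lower in cKO. Nfe2l2, the gene of Nrf2 (chromosome 2, 75675513 to 75704641, minus strand, GRCm38), was at 12.7, 16.5, 14.8 and 10.4 FPKM in cKO libraries 1, 3, 4 and 5, against 17.5, 18.8, 23.1 and 17.5 FPKM in WT libraries 1, 3, 4 and 5. The groups did not overlap (log2 difference -0.50, SE 0.15). An exact permutation test of the group labels, which ignored the library numbers, gave a two-sided p of 0.0286, the lowest value possible with 70 assignments. The adjusted p of Nfe2l2 in limma over all 12339 genes was 0.453, and 0.0219 with the replicate number as a block. With the block it was between 0.0634 and 0.0846 when pair 1, 4 or 5 was left out. The value covers the whole gene, so RNA from exons that were not deleted, or from cells that were not targeted, is part of it. Keap1 was at 24.7 ± 1.93 FPKM in cKO and 24.1 ± 3.38 FPKM in WT (SD, n = 4 each; adjusted p = 0.898).

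Markers of Müller cells were high in every library, and so were those of rods and bipolar cells. The 10 Müller markers summed to 8480 to 12434 FPKM in cKO and 8437 to 14292 FPKM in WT, the 9 rod markers to 3245 to 4933 FPKM in cKO and 3015 to 4803 FPKM in WT, and the 8 bipolar markers to 2265 to 2771 FPKM in cKO and 1778 to 2272 FPKM in WT. None of the 9 microglial markers was among the deposited genes. With the block, 0 of the 10 Müller markers rose and 1 fell in cKO, with 2 positive differences and a median of -0.12 on the log2 scale (over all genes, 2.99% rose and 7.59% fell). In the same fit 4 of the 8 bipolar and 2 of the 5 measured astrocyte markers rose in cKO, while 4 of 6 cone, 3 of 5 amacrine and horizontal and 3 of 6 ganglion cell markers fell. The astrocyte markers that rose included Gfap (log2 difference 1.35; adjusted p of 0.435 unblocked and 0.00521 blocked by number). Whether the Gfap RNA came from astrocytes or from Müller cells was not tested. In such a pull-down, fewer cells of a type and less RNA per cell cannot be told apart, and the part of these other cells in the results below was not tested. Xist was at 0.0863 and 0.00505 FPKM in cKO 4 and cKO 5, against 25.01 to 72.1 FPKM in the other 6 libraries. Both libraries with low Xist were thus cKO, and the groups were not balanced for it. The sex of the animals is not given, and its part in this was not tested.

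As a group, the members were among the more abundant RNAs. Their median level was 27.8 FPKM, against 15.4 FPKM for all genes, and without Msra, which is described below, they took between 0.752% and 0.945% of the summed FPKM of a library. Prdx6, Prdx2, Prdx1, Sod1, Park7, Gpx4, Gstm5, Prdx5, Gsta4 and Msra had the highest means. Prdx6 ranked 99th and Prdx2 152nd of all genes by mean FPKM, while Gsto2 and Txnrd3, at means of 2.53 FPKM, stood near the lower limit of the table. Levels in FPKM are per length and can be set against each other between genes.

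**Figure D1:**
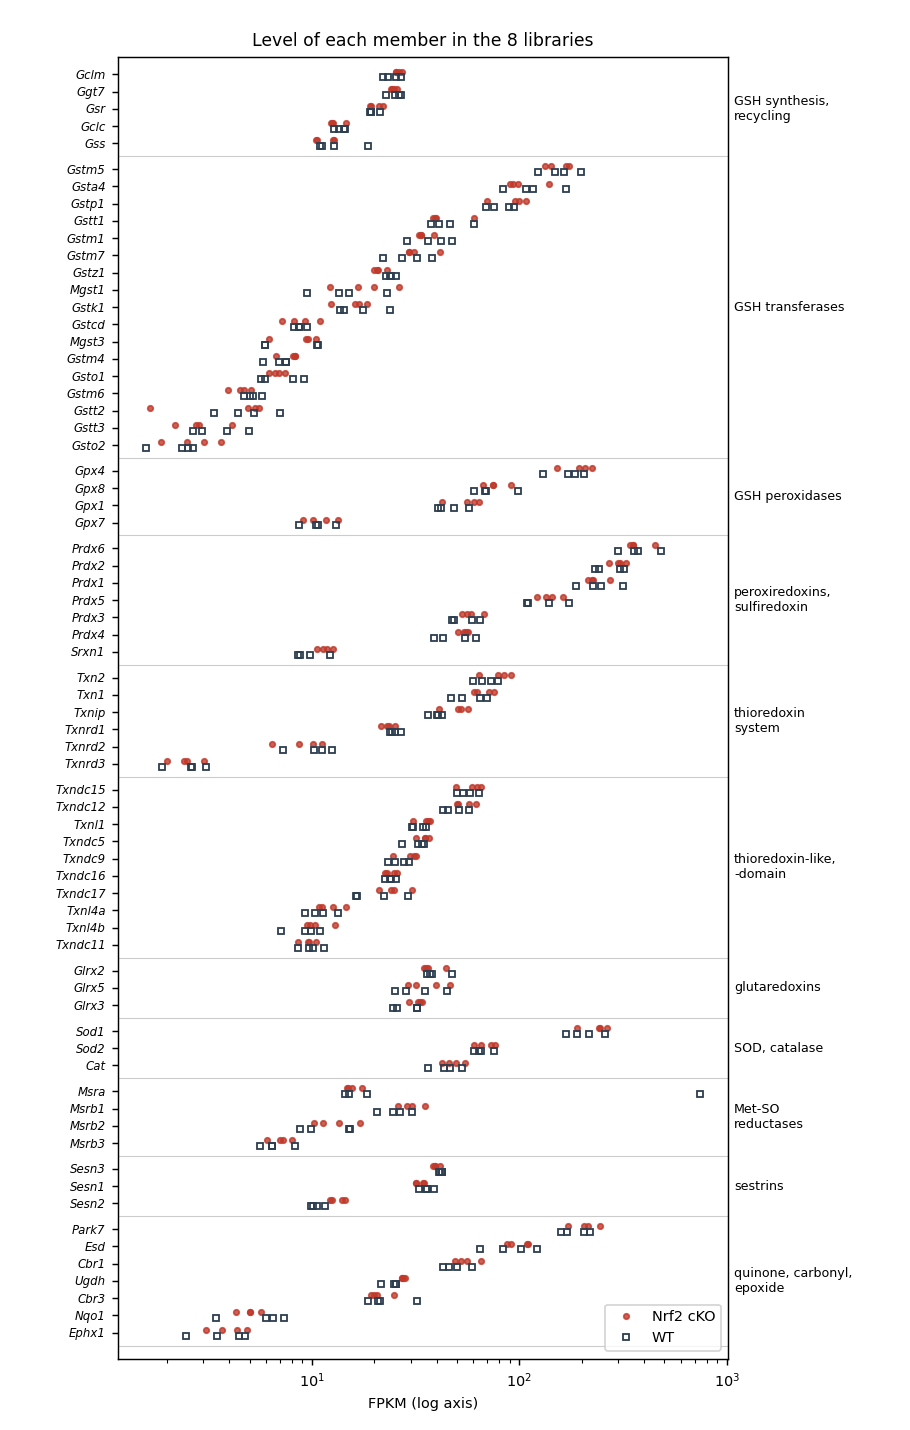
Level of each of the 69 members in FPKM (log axis), by role, with red points for the 4 cKO libraries above open squares for the 4 WT libraries. Prdx1, Prdx2, Prdx5, Prdx6, Gpx4, Gstm5, Sod1 and Park7 lie above 100 FPKM in all 8 libraries, the groups overlap in most rows, and Msra has 1 WT value of 745 FPKM apart from the other 7.

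The comparison of cKO with WT asked whether RNAs of this defence system on Müller ribosomes differed when Nrf2 was deleted. In limma without the replicate block, 0 of the 69 members passed an adjusted p of 0.05 in either direction, as did 0% of all 12339 genes. At an unadjusted p under 0.05, 2 members were higher (3.95% of all genes) and 0 were lower (6.67% of all genes). With the block, 2 members rose, Txnip and Sesn2 (2.99% of all genes rose), and 0 fell (7.59% of all genes fell). At an unadjusted p under 0.05 with the block, 14 were higher (12.4% of all genes) and 1, Gstz1, was lower (16% of all genes). The groups did not overlap for 2 members, Sesn2 and Ugdh, both higher in cKO (2.06% of all genes), and for 0 members on the lower side (2.28% of all genes). The share of members that rose with the block, 2.90%, was thus near the share of all genes.

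Sesn2 and Txnip are known mainly as regulators. Sesn2, a stress-induced sestrin that restrains the growth kinase mTORC1 (chromosome 4, 132492032 to 132510501, minus strand), was at 14.4, 13.9, 12.5 and 12.2 FPKM in cKO libraries 1, 3, 4 and 5, against 11.5, 9.85, 10.6 and 10.2 FPKM in WT libraries 1, 3, 4 and 5. Every cKO value lay above every WT value, and the log2 difference was 0.32 (SE 0.10; adjusted p of 0.453 unblocked and 0.0451 blocked by number). Txnip, the thioredoxin-interacting protein that binds reduced thioredoxin and limits glucose uptake (chromosome 3, 96557957 to 96561883, plus strand), was at 41.00, 56.5, 50.8 and 52.1 FPKM in cKO libraries 1, 3, 4 and 5, against 36.2, 40.3, 42.4 and 40.1 FPKM in WT libraries 1, 3, 4 and 5. It was higher in cKO in each of the 4 pairs of equal number, although cKO 1 lay below WT 4 (log2 difference 0.32, SE 0.11; adjusted p of 0.453 unblocked and 0.0282 blocked by number). Leaving out any 1 pair ended both calls, at an adjusted p with the block of 0.0519 to 0.104 for Txnip and 0.0778 to 0.157 for Sesn2. The log2 differences were then 0.27 to 0.37 for Txnip and 0.26 to 0.34 for Sesn2. Over all genes, calls with the block went from 1305 to 402, 606, 524 and 821 without pairs 1, 3, 4 and 5. A lost call is thus not particular to these 2 genes. With a correction for transcript length and GC content added to the block, Txnip was at 0.0528 and Sesn2 at 0.0397. Of the exonic bases of Txnip, 19.4% lie opposite exons of the antisense gene Gm15441, and, although the library kit keeps the strand per the labels' protocol, the strand setting of the authors' counting is not given in the sources used here. Of the other sestrins, Sesn1 was at 31.9, 31.9, 34.8 and 34.2 FPKM in cKO, against 32.7, 35.4, 38.6 and 35.9 FPKM in WT, in libraries 1, 3, 4 and 5. Sesn3 was at 39.3, 39.3, 38.2 and 41.4 FPKM in cKO, against 42.1, 42.6, 41.2 and 41.6 FPKM in WT, in the same order. Each was lower in cKO in all 4 pairs by a small amount, and neither passed (log2 differences -0.10 and -0.08; adjusted p = 0.646 and 0.665, and 0.326 and 0.404 with the block).

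The promoters of these 2 genes are shown with those of Gclm, Prdx1 and Txnrd1, which are known Nrf2 targets with a match, since the deleted factor binds antioxidant response elements. Nqo1, Cbr3 and Gstm1, also known as Nrf2 targets, held no match in their RefSeq windows and are not shown. Srxn1, another known target, is not shown either, and its match began 28 bases after the start, outside the bases given here. Each line gives the 250 bases before a RefSeq transcription start on GRCm38.p6, 5′ to 3′ on the strand of the gene, and the capitals mark matches to TGACNNNGC, the core of the element, on either strand.
Sesn2, chr4:132510457-132510706, minus strand: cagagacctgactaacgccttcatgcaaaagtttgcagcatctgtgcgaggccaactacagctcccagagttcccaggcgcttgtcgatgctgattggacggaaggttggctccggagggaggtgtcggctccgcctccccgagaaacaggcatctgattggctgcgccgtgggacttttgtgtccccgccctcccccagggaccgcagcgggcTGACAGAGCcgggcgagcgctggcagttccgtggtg
Txnip, chr3:96557707-96557956, plus strand: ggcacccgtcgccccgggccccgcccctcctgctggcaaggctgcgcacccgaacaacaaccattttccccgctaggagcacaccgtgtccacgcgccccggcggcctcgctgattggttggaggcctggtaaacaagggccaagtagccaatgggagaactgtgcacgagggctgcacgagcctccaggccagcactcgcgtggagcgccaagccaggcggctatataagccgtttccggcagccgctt
Gclm, chr3:122245307-122245556, plus strand: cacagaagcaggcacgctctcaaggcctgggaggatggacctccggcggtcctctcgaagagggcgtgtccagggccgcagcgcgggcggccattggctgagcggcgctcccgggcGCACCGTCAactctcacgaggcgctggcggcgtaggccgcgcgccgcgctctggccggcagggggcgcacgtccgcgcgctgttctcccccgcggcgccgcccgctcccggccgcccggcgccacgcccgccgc
Prdx1, chr4:116685349-116685598, plus strand: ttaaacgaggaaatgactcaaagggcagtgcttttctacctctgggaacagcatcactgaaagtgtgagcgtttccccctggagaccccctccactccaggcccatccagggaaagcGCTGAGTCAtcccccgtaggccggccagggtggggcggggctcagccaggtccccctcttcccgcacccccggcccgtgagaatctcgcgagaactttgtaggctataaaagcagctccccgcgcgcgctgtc
Txnrd1, chr10:82858956-82859205, plus strand: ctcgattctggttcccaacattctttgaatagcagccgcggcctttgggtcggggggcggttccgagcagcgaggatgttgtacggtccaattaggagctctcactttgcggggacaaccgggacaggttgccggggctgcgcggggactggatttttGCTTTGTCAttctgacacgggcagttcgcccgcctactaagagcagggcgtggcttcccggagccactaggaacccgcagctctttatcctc
The match began 36 bases before the start in Sesn2, 134 in Gclm, 133 in Prdx1 and 92 in Txnrd1, and the Txnip window held none. Txnrd1 has 3 RefSeq starts, and the windows of the other 2 held no match. Over windows from 250 bases before to 50 bases after the start, 13 of the 61 members with a RefSeq promoter held at least 1 match at any of their starts (21.3%), against 16.9% of the genes in the FPKM table with a promoter and 13.99% of all genes in the RefSeq table. The other members with a match were Gstm5, Gstm7, Mgst1, Msrb2, Sod1, Srxn1, Txndc11, Txndc5 and Ugdh, of which Ugdh held 2. Gclc, Gsr, Gsta4, Gstt2, Msra, Prdx6, Txnl1 and Txnl4a had no RefSeq promoter and were not searched. A match is a description of these letters and not a site of binding.

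Enzymes that make and recycle glutathione had means between 12.5 and 25.2 FPKM, and 0 of the 5 passed in either fit. The catalytic subunit Gclc and the modifier subunit Gclm form the rate-limiting enzyme of glutathione synthesis, Gss completes the molecule and Gsr reduces its oxidised form. Gclm was at 25.5, 25.5, 26.3 and 27.02 FPKM in cKO libraries 1, 3, 4 and 5, against 23.2, 25.5, 26.9 and 22.1 FPKM in WT libraries 1, 3, 4 and 5, with the 4 cKO values inside the range of the WT values except cKO 5, which lay just above it (log2 difference 0.10, 95% interval -0.10 to 0.29; adjusted p = 0.675). Gclc was at 12.7, 14.6, 12.3 and 12.5 FPKM in cKO, against 13.5, 14.4, 14.2 and 12.8 FPKM in WT, in the same order of libraries (log2 difference -0.07, 95% interval -0.28 to 0.13; adjusted p = 0.758). Gsr averaged 20.3 ± 1.42 FPKM in cKO and 19.8 ± 1.03 FPKM in WT, and Gss 11.6 ± 1.24 FPKM in cKO and 13.4 ± 3.61 FPKM in WT (SD, n = 4 each; adjusted p = 0.882 and 0.697). For Gss, WT 4 stood apart at 18.7 FPKM against 10.96 to 12.7 FPKM in the other WT libraries. Ggt7, annotated as a gamma-glutamyltransferase, had a log2 difference of -0.02. Over these 5 genes the median difference was -0.02.

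The 17 glutathione transferases, which attach glutathione to electrophiles, ran from 2.53 to 156 FPKM. Their median log2 difference was -0.06, with 7 positive and 10 negative, and 0 of them passed in either fit. Gsta4, which conjugates the lipid peroxidation product 4-hydroxynonenal, was at 98.6, 90.2, 139 and 93.5 FPKM in cKO libraries 1, 3, 4 and 5, against 83.8, 116, 168 and 108 FPKM in WT libraries 1, 3, 4 and 5. Number 4 was the highest in both groups, and the groups overlapped (log2 difference -0.15, 95% interval -0.61 to 0.31; adjusted p = 0.781). The most abundant transferase was Gstm5, at 154 ± 19.4 FPKM in cKO and 158 ± 31.3 FPKM in WT (SD, n = 4 each; adjusted p = 0.955), followed by Gsta4 and Gstp1. Gstm1, a mu class transferase used as an Nrf2 target in mouse liver, was at 33.6, 33.4, 38.8 and 32.9 FPKM in cKO, against 28.8, 36.1, 41.9 and 47.3 FPKM in WT, in libraries 1, 3, 4 and 5. It was higher in cKO in pair 1 and lower in the other 3 (log2 difference -0.13; adjusted p = 0.726).

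Mgst1, a membrane-bound transferase that also reduces lipid peroxides, had the largest positive difference of this group. It was at 19.9, 16.7, 26.3 and 12.2 FPKM in cKO libraries 1, 3, 4 and 5, against 13.5, 15.2, 22.9 and 9.42 FPKM in WT libraries 1, 3, 4 and 5. Number 4 was highest and number 5 lowest in both groups, the groups overlapped, and cKO was higher in all 4 pairs (log2 difference 0.31, SE 0.27; adjusted p of 0.661 unblocked and 0.0626 blocked by number). Gstm4 and Gstp1 were also higher in all 4 pairs, each with a log2 difference of 0.17. The adjusted p was 0.599 unblocked and 0.239 blocked by number for Gstm4, and 0.655 and 0.141 for Gstp1. On the lower side, Gstz1, which isomerises maleylacetoacetate in tyrosine breakdown, was at 20.7, 20.8, 23.02 and 19.9 FPKM in cKO libraries 1, 3, 4 and 5, against 22.7, 24.2, 23.7 and 25.5 FPKM in WT libraries 1, 3, 4 and 5. The groups overlapped only through cKO 4 and WT 1 (log2 difference -0.18, SE 0.09; adjusted p of 0.476 unblocked and 0.153 blocked by number). Gstm6 was lower in all 4 pairs, at 4.56 ± 0.488 FPKM in cKO and 5.18 ± 0.427 FPKM in WT (SD, n = 4 each; log2 difference -0.17; adjusted p = 0.611). The lowest difference was that of Gstt2 (-0.25) and the highest that of Mgst1.

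All 4 glutathione peroxidases had a positive difference, and 0 passed in either fit. By pair, 4, 3, 2 and 1 of them were higher in cKO in pairs 1, 3, 4 and 5. Their longest transcripts were 995 to 1289 bases, and 72.1% of all genes under 1500 bases had a positive difference. Gpx4, the selenoenzyme that reduces lipid hydroperoxides in membranes, was at 208, 153, 224 and 194 FPKM in cKO libraries 1, 3, 4 and 5, against 172, 129.6, 204 and 185 FPKM in WT libraries 1, 3, 4 and 5. It was higher in cKO in every pair, while the ranges of the groups overlapped (log2 difference 0.18, SE 0.16; adjusted p of 0.670 unblocked and 0.111 blocked by number). Of the 50-base words in its longest transcript, 61.7% also occur in the pseudogene Gpx4-ps2, so reads can be shared between them. That pseudogene was at 28.3 ± 6.90 FPKM in cKO and 23.9 ± 3.80 FPKM in WT. Gpx1, the cytosolic selenoenzyme, was at 60.2, 42.6, 63.7 and 55.8 FPKM in cKO, against 41.7, 40.7, 48.4 and 57.2 FPKM in WT, in libraries 1, 3, 4 and 5 (log2 difference 0.24; adjusted p of 0.548 unblocked and 0.163 blocked by number). It was higher in cKO in pairs 1, 3 and 4 and lower in pair 5. Gpx7 and Gpx8, which work in the endoplasmic reticulum, differed by 0.04 and 0.07.

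Peroxiredoxins, which reduce hydrogen peroxide through a reactive cysteine, held the 3 highest levels of all members, and 0 of the 6 passed in either fit. Prdx6, the single-cysteine member known from glia, was at 354, 351, 449 and 341 FPKM in cKO libraries 1, 3, 4 and 5, against 299, 355, 482 and 373 FPKM in WT libraries 1, 3, 4 and 5. The means were 374 ± 50.6 FPKM in cKO and 377 ± 76.9 FPKM in WT (SD, n = 4 each), a log2 difference of 0.00 with a 95% interval from -0.35 to 0.35 (adjusted p = 0.998). Prdx1, a known Nrf2 target of the cytosol, was at 224, 226, 274 and 214 FPKM in cKO, against 187, 226, 317 and 246 FPKM in WT, in libraries 1, 3, 4 and 5 (log2 difference -0.04, 95% interval -0.39 to 0.31; adjusted p = 0.931). In both genes cKO was higher in pair 1 and lower in pairs 4 and 5. Prdx2, the neuronal and red cell form, averaged 300.4 ± 23.2 FPKM in cKO and 275 ± 44.4 FPKM in WT, and the mitochondrial Prdx3 58.8 ± 6.35 FPKM in cKO and 54.7 ± 8.31 FPKM in WT. Prdx4 of the endoplasmic reticulum averaged 54.01 ± 2.34 FPKM in cKO and 49.5 ± 10.6 FPKM in WT, and Prdx5 141 ± 17.3 FPKM in cKO and 133 ± 29.98 FPKM in WT. The adjusted p of these 4 was between 0.675 and 0.816.

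Srxn1, sulfiredoxin, which repairs overoxidised peroxiredoxins and is a known Nrf2 target, was at 10.6, 11.8, 11.4 and 12.7 FPKM in cKO libraries 1, 3, 4 and 5, against 8.53, 8.75, 12.2 and 9.80 FPKM in WT libraries 1, 3, 4 and 5. It was higher in cKO in pairs 1, 3 and 5 and lower in pair 4 (log2 difference 0.24, SE 0.13; adjusted p of 0.492 unblocked and 0.169 blocked by number).

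In the thioredoxin system, Txnip was the member that rose with the block, while the thioredoxins and their reductases did not pass. Txn1, the cytosolic thioredoxin, was at 71.6, 60.7, 75.1 and 62.2 FPKM in cKO libraries 1, 3, 4 and 5, against 53.00, 46.9, 64.4 and 69.5 FPKM in WT libraries 1, 3, 4 and 5 (log2 difference 0.21; adjusted p of 0.547 unblocked and 0.197 blocked by number). Pair 5 ran against the other 3. With the block, the adjusted p was 0.483, 0.444 and 0.349 without pairs 1, 3 and 4, and 0.0470 without pair 5, where the difference was 0.34. With the length and GC correction added to the block, all 4 pairs gave a difference of 0.09 and an adjusted p of 0.582. Txn2, the mitochondrial thioredoxin, was higher in all 4 pairs, though in pair 5 by little (84.7, 64.1, 91.2 and 78.8 FPKM in cKO, against 66.1, 59.7, 72.9 and 78.5 FPKM in WT, in libraries 1, 3, 4 and 5; adjusted p of 0.563 unblocked and 0.138 blocked by number). Txnrd1, the cytosolic thioredoxin reductase and a known Nrf2 target, was at 23.1, 23.6, 21.5 and 25.2 FPKM in cKO, against 24.3, 25.2, 23.9 and 26.8 FPKM in WT, in the same order. Each cKO library was below the WT library of its number, by a log2 difference of -0.10 with a 95% interval from -0.29 to 0.09 (adjusted p of 0.653 unblocked and 0.338 blocked by number). Txnrd2, the mitochondrial reductase, and Txnrd3, known from testis, differed by -0.17 and -0.03.

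The 10 thioredoxin-like and thioredoxin-domain genes, several of them folding proteins of the endoplasmic reticulum, had 9 positive differences, a range from -0.05 to 0.28 and a median of 0.13, with 0 past the threshold in either fit. Txndc17 differed most, at 23.95, 24.8, 30.3 and 21.1 FPKM in cKO libraries 1, 3, 4 and 5, against 16.3, 16.5, 29.04 and 22.2 FPKM in WT libraries 1, 3, 4 and 5 (log2 difference 0.28; adjusted p of 0.569 unblocked and 0.172 blocked by number). In pairs 1 and 3 its cKO value was far above WT, and in pair 5 it was slightly below. Txndc12 and Txndc9 differed by 0.17 and 0.14 (adjusted p = 0.572 and 0.625). Of the 3 glutaredoxins within the rule, which use glutathione to reduce disulfides or to carry iron-sulfur clusters, Glrx3 was higher in all 4 pairs (log2 difference 0.18; adjusted p of 0.550 unblocked and 0.173 blocked by number) and the mitochondrial Glrx2 lower in all 4 (-0.06; adjusted p of 0.844 unblocked and 0.519 blocked by number). Mitochondrial Glrx5 differed by 0.15.

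The enzymes that remove superoxide and hydrogen peroxide directly had small positive differences, and 0 passed in either fit. Sod1, the copper-zinc superoxide dismutase, was at 243, 189, 263 and 243 FPKM in cKO libraries 1, 3, 4 and 5, against 189, 168, 259 and 217 FPKM in WT libraries 1, 3, 4 and 5. It was higher in cKO in every pair, and the groups overlapped (log2 difference 0.18, SE 0.15; adjusted p of 0.649 unblocked and 0.146 blocked by number). Sod2, the manganese form of mitochondria, averaged 68.8 ± 7.10 FPKM in cKO and 66.1 ± 6.42 FPKM in WT, and Cat, the catalase of peroxisomes, 48.1 ± 5.42 FPKM in cKO and 44.7 ± 7.03 FPKM in WT (SD, n = 4 each; adjusted p = 0.846 and 0.740).

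Among the methionine sulfoxide reductases, which repair oxidised methionine, 1 value of Msra stood apart from the other 7. Msra was at 14.9, 14.8, 15.6 and 17.4 FPKM in cKO libraries 1, 3, 4 and 5, against 15.2, 14.4, 745 and 18.4 FPKM in WT libraries 1, 3, 4 and 5, so WT 4 held 40.4 times the next highest value. The means of 15.7 ± 1.22 FPKM in cKO and 198 ± 364 FPKM in WT (SD, n = 4 each; adjusted p = 0.614) rested on that library, and without WT 4 the log2 difference was -0.02 (adjusted p = 0.929). Msrb1, a selenoenzyme, was at 28.7, 26.00, 35.2 and 30.2 FPKM in cKO, against 24.6, 20.6, 30.4 and 26.7 FPKM in WT, in libraries 1, 3, 4 and 5, and was higher in cKO in all 4 pairs (log2 difference 0.23, SE 0.13; adjusted p of 0.516 unblocked and 0.0579 blocked by number). Msrb2 and Msrb3 differed by 0.10 and 0.08.

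Of the enzymes of quinone, carbonyl and epoxide metabolism, Nqo1 is the quinone reductase most used as a readout of Nrf2. It was low, at 4.32, 5.005, 5.04 and 5.65 FPKM in cKO libraries 1, 3, 4 and 5, against 3.46, 6.49, 7.37 and 6.03 FPKM in WT libraries 1, 3, 4 and 5. The cKO value was below WT in pairs 3, 4 and 5 and above it in pair 1, where WT 1 was the lowest of the 8 libraries (log2 difference -0.16, 95% interval -0.62 to 0.29; adjusted p of 0.759 unblocked and 0.492 blocked by number). Ugdh, which makes UDP-glucuronic acid for glucuronidation and matrix polysaccharides, was at 27.4, 27.2, 27.2 and 27.99 FPKM in cKO, against 24.8, 21.5, 25.5 and 25.3 FPKM in WT, in libraries 1, 3, 4 and 5. Every cKO value lay above every WT value, without passing the test (log2 difference 0.18, SE 0.09; adjusted p of 0.480 unblocked and 0.140 blocked by number). Cbr1, a carbonyl reductase, was higher in all 4 pairs (log2 difference 0.17; adjusted p of 0.596 unblocked and 0.119 blocked by number), and its neighbour Cbr3, a known Nrf2 target, differed by -0.11. Park7, a redox-sensitive chaperone, averaged 209 ± 30.4 FPKM in cKO and 188 ± 29.4 FPKM in WT (SD, n = 4 each; adjusted p = 0.674). Ephx1 and Esd differed by 0.09 and 0.13.

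**Figure D2:**
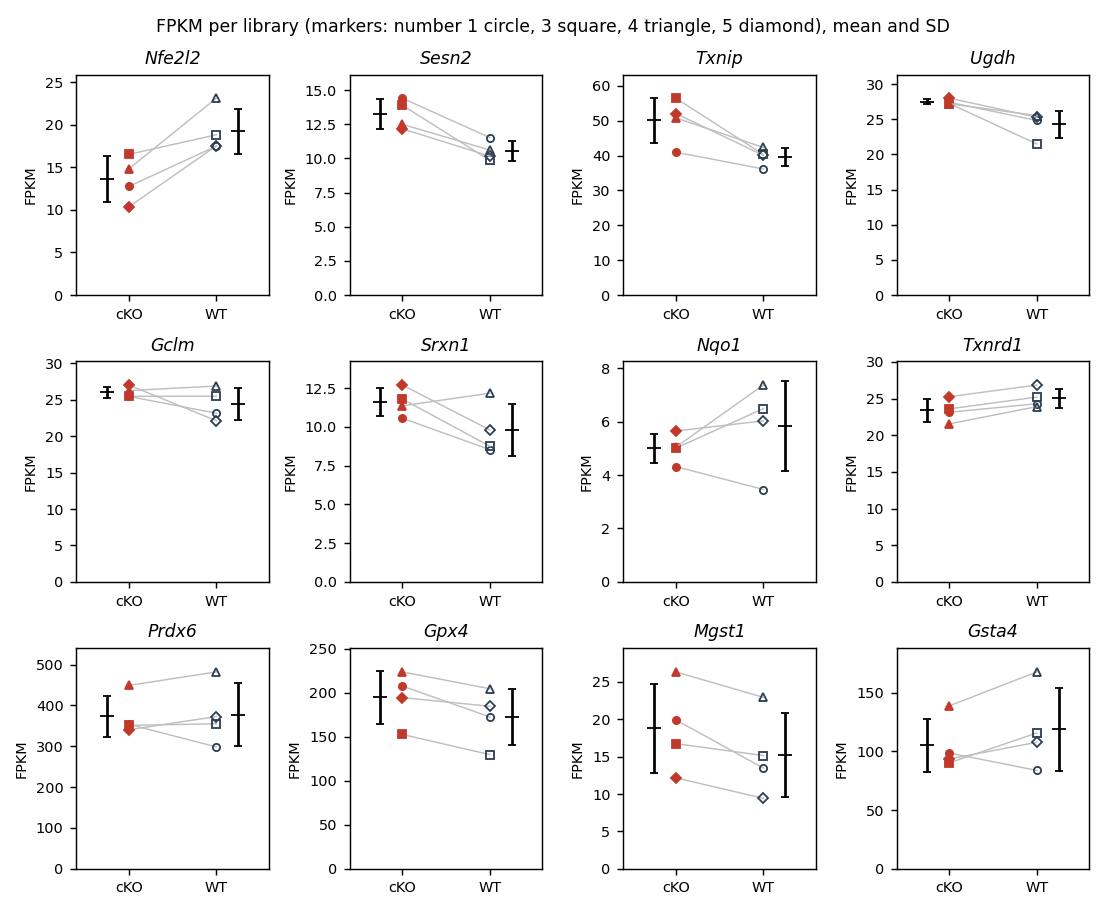
FPKM of Nfe2l2 and 11 members in each library, with cKO (red, left) and WT (open, right), grey lines joining libraries of equal number, and the mean and SD of each group (n = 4) at the sides. Nfe2l2, Sesn2 and Ugdh show no overlap between the groups, Txnip is higher in cKO in all 4 pairs, and Prdx6, Gsta4 and Mgst1 are highest in number 4 in both groups.

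Seen together, 44 of the 69 members had a positive difference (63.8%, against 50.7% of all genes), and the median was 0.09 on the log2 scale, against 0.00 over all genes. By pair, the median was 0.21 in pair 1, 0.05 in pair 3, 0.01 in pair 4 and -0.02 in pair 5, with 52, 42, 36 and 31 members higher in cKO. The median was thus highest in pair 1, and without that pair it was 0.04. In all 4 pairs 14 members were higher in cKO (16.7% of all genes) and 6 were lower (19.5% of all genes). The 6 were Gstm6, Gstz1, Txnrd1, Glrx2, Sesn1 and Sesn3, named after their values were seen. With Xist as a covariate the median was 0.00. Both libraries with low Xist were cKO, so that fit cannot fully separate Xist from genotype.

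**Figure D3:**
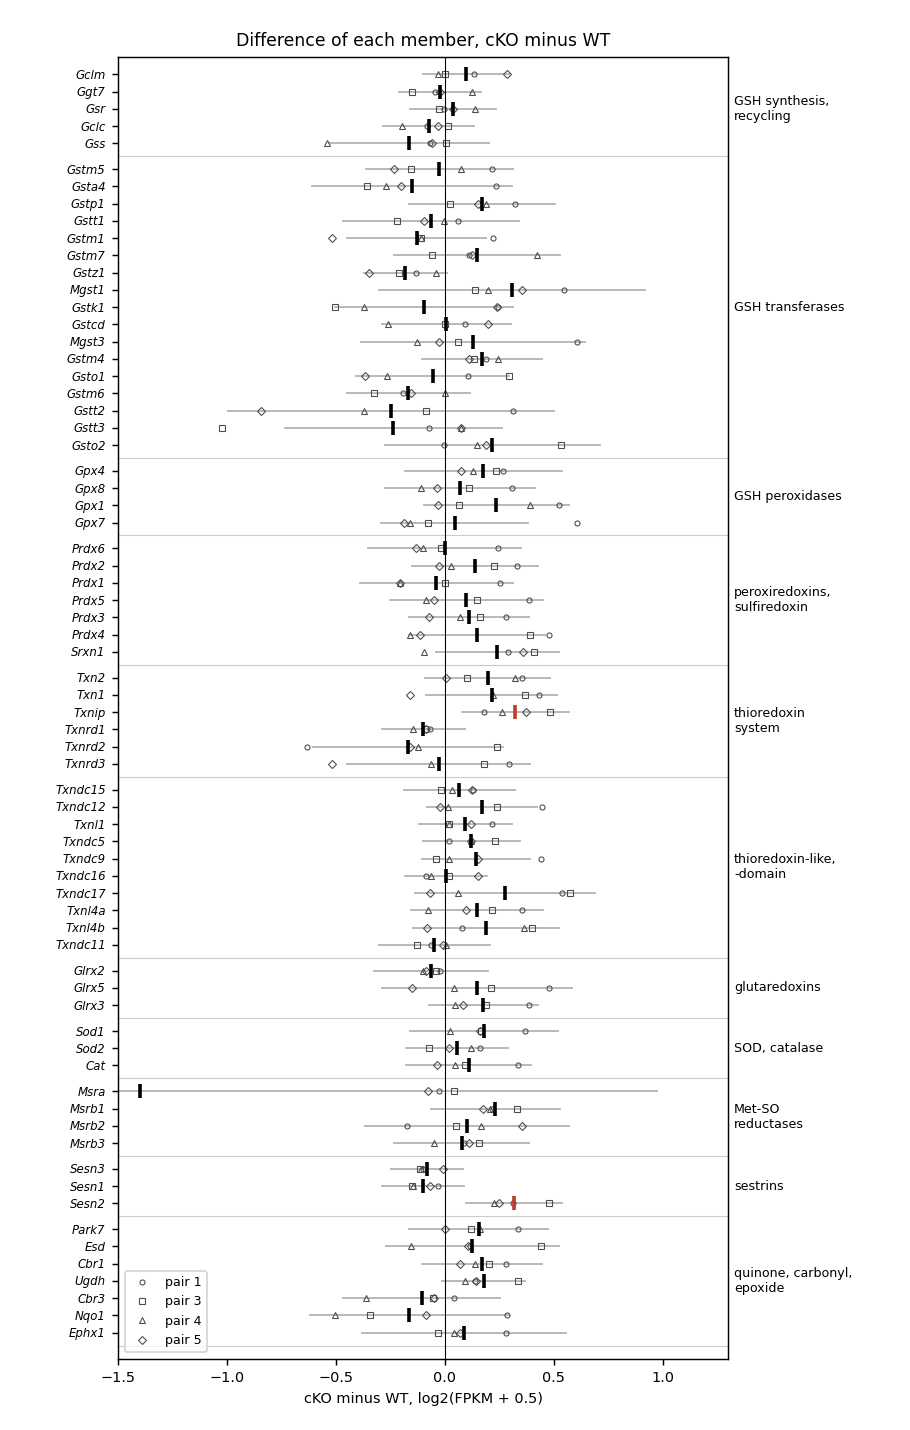
Log2 difference, cKO minus WT, of each member by role. The thick tick is the mean difference (red where the adjusted p passed 0.05 with the replicate block, as for Txnip and Sesn2), the grey line its 95% interval in limma without the block, and the open markers the 4 pairs. The interval of Msra and its pair 4 run beyond the left edge, and most intervals include 0.

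The highest library over the members had the same number in both groups for 38 of them, and the lowest for 37. After removal of each member's own mean, the median over members was 0.16 in cKO 4 and 0.16 in WT 4, and it was lowest in WT 1 (-0.19), WT 3 (-0.10) and cKO 3 (-0.08), while over all genes it was at most 0.01 from 0 in every library. Number 4 was the highest of its group for 33 members in cKO and 41 in WT, and the highest in both groups for 24, among them Prdx1, Prdx6, Gsta4, Gstt1, Gpx8 and Mgst1. The summed level of the Müller markers was also highest in number 4, at 12434 FPKM in cKO 4, against 8480 to 9056 in the other cKO libraries, and at 14292 FPKM in WT 4, against 8437 to 10519 in the other WT libraries. The part of Müller RNA in this pattern was not tested.

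**Figure D4:**
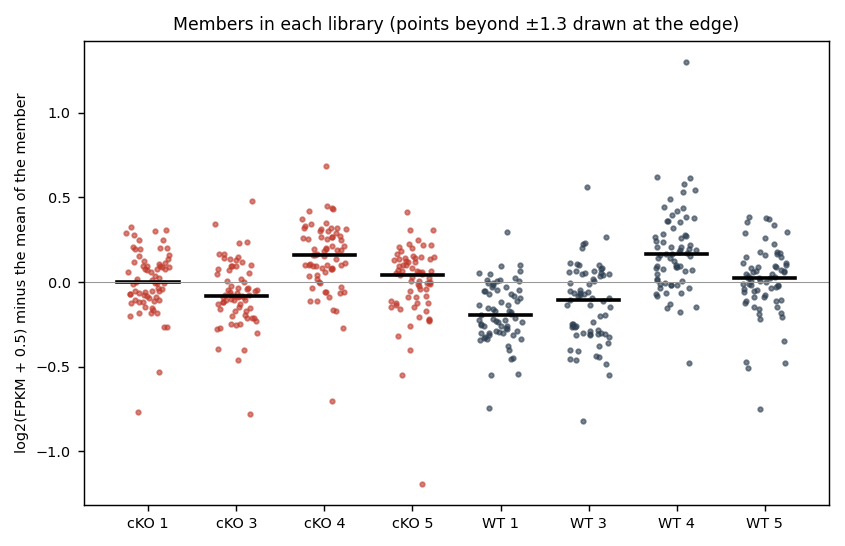
Deviation of each member's log2(FPKM + 0.5) from its own mean over the 8 libraries, in cKO libraries (red, left) and WT libraries (dark, right), with a bar at the median over the 69 members. The medians are 0.16 in cKO 4 and WT 4 and -0.19 in WT 1, and 1 point in WT 4 drawn at the edge is Msra.

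Transcript length moved with the difference. Among all genes, the median difference was 0.13 for longest transcripts under 1500 bases, 0.05 for 1500 to under 3000 bases and -0.04 for 3000 bases or more. For the members it was 0.13 (25 genes), 0.10 (23 genes) and 0.06 (21 genes) in the same classes, and their median length was 2143 bases, against 3396 bases for all genes. With a correction of each library for length and GC content, the median over the members was 0.03. The part of transcript length in the differences of single members was not tested further.

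**Figure D5:**
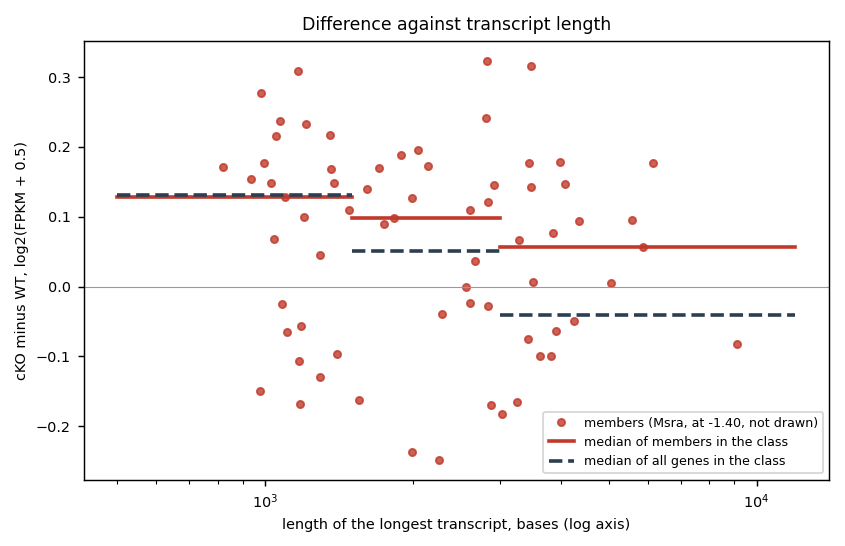
Log2 difference, cKO minus WT, of the members (points, Msra left out) against the length of the longest transcript in bases (log axis), with the median of the members (solid) and of all genes (dashed) in 3 length classes. In the shortest class both medians are 0.13.

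Other genes of the pathway were taken from lists chosen by function. Of 11 Nrf2 regulators, all measured, 0 rose (2.99% of all genes) and 2 fell (7.59% of all genes) with the block. These were Nfe2l2, the targeted gene itself, and Mafg, a small Maf partner of Nrf2. Mafg had a log2 difference of -0.39 (adjusted p of 0.516 unblocked and 0.0296 blocked by number). The other small Mafs of the list, Maff and Mafk, were higher in cKO, by 0.51 and 0.31. Neither passed (adjusted p of 0.474 and 0.483 unblocked, and 0.186 and 0.113 blocked by number). Of the 11 regulators, 8 had a positive difference, and their median was 0.10. Leaving out pair 1, 3 or 4 ended the Mafg call, in fits where calls over all genes also fell. Of 19 genes of cysteine and glutathione supply, 15 were measured. In the blocked fit 2 rose, Chac2 and Hagh (2.99% of all genes), 1 fell, Mat2a (7.59% of all genes), and the other 12 missed the threshold. Chac2, which breaks down glutathione, was at 11.4, 8.83, 11.3 and 12.8 FPKM in cKO libraries 1, 3, 4 and 5, against 7.37, 6.57, 8.61 and 7.96 FPKM in WT libraries 1, 3, 4 and 5, with no overlap between the groups (log2 difference 0.50, SE 0.13; adjusted p of 0.453 unblocked and 0.0141 blocked by number, or 0.0697 without pair 1). Hagh, a glyoxalase that releases glutathione, differed by 0.31 (adjusted p of 0.469 unblocked and 0.0282 blocked by number, but 0.0585 to 0.0932 without 1 pair). Mat2a, which makes S-adenosylmethionine upstream of cysteine, was at 97.9, 101, 87.8 and 63.4 FPKM in cKO libraries 1, 3, 4 and 5, against 123, 159, 134 and 89.1 FPKM in WT libraries 1, 3, 4 and 5. It was lower in cKO in every pair (log2 difference -0.52; adjusted p of 0.453 unblocked and 0.00533 blocked by number), and stayed under 0.05 with the block when any 1 pair was left out, at 0.0185 to 0.0314.

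In the 10 genes of NADPH supply, the 19 measured of 23 other detoxification genes and the 19 measured of 21 genes for selenoproteins and selenium use, 0 passed in either fit. Without the block, the lowest adjusted p was that of Me1, malic enzyme, in the NADPH list (0.638), of Aldh9a1, an aldehyde dehydrogenase, in the detoxification list (0.484) and of Selenoo in the selenium list (0.469). With the block it was that of Taldo1, transaldolase (0.334), of Aldh9a1 (0.0699) and of Selenot (0.0647), with Selenow at 0.0772.

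Some values rest on reads that other genes could share. Of the 50-base words in the longest transcript, more than 5% occur in another gene for 12 members, and most for Gstp1 (62.3%, all with Gstp2), Gpx4 (61.7%), Gstm1 (23.1%, mainly with Gstm2-ps1) and Glrx3 (20.4%). Exons overlap those of another gene on the opposite strand for 14 members, as for Prdx5 with Trmt112 (19.1% of exonic bases) and Gstm5 with an antisense gene (13.9%). They overlap on the same strand for 5 members, as for Gstt3 with Gm20441 (13.6%) and Txnl4a with Gm16286 (10.1%). How the authors' counting split such reads is not given in the sources used here.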

How the data were processed

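Ribosome-bound RNA (RiboTag) from Müller cells was profiled in 8 libraries, 4 cKO and 4 WT. Poly(A) RNA was made into strand-keeping libraries, per the labels' protocol. The authors deposited 1 table of FPKM per gene. Per the submitters' processing notes, STAR and edgeR were used with GRCm38 (mm10), with no versions, and counting is not given in the sources used here. With no counts deposited, depth is unknown, and FPKM sums were 410581 to 448130 per library.

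Values were tested as log2(FPKM + 0.5), with no filter, in limma 3.58.1 (R 4.3.3; eBayes with trend) over all 12339 genes, two-sided, with Benjamini-Hochberg adjustment at 0.05. Differences are cKO minus WT on this scale, which understates the change of low genes. The titles give both groups the same numbers, and a second fit used the number as a block. Over genes, the deviations of same-numbered libraries from their group means correlated at 0.26 to 0.59 (other pairs -0.48 to 0.21). The numbers were therefore treated as pairs. That pairing rests only on the shared numbers and on these correlations, which come from the same data, and the sources used here do not state it. The script was tested on simulated data. Gene positions and transcript lengths are from GENCODE M21 (GRCm38; 12327 IDs found). Promoters are from RefSeq (GRCm38.p6).

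Members and lists were chosen with earlier results of these data known. Named members were those past the threshold in either fit or not overlapping, the 10 most abundant, a list of known enzymes, and those with the smallest p. Others are named to complete their role. Alternatives were pseudocounts of 0.1 and 1, a minimum mean of 5 FPKM, 3 other scalings, library weights, no trend, Xist as covariate, each library or pair left out, and, chosen after the data were seen, a length and GC correction.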

Additional observations from a re-analysis of the deposited data

Results flagged for a closer look

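Within groups of 4 libraries, 9 of the 138 groups of member values tested had 1 library far from the other 3 (gap over range above Dixon's 95% critical value for 4 values), where chance gives about 1 in 20, or 6.9. Msra in WT 4, at 745 FPKM against 14.4 to 18.4 FPKM in the other 7 libraries, stood farthest apart. It is 1 of 2 genes in the table in which 1 library exceeded the next by over 10-fold. The others were Gclc in cKO 3 (14.6 FPKM), Gstm1 in cKO 4 (38.8), Gstm4 in cKO 1 (6.70), Gstm7 in cKO 5 (41.2), Gstt1 in cKO 4 (60.3), Gstt2 in cKO 5 (1.65) and Prdx6 in cKO 4 (449), and Gsr in WT 5 (21.3). Of these, 3 were in cKO 4 and 2 in cKO 5.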

How the results depend on the processing

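With the replicate block, 2 members passed upward (Txnip and Sesn2), 1 with a length and GC correction added (Sesn2), 1 without pair 5 (Txn1), and 0 without pair 1, 3 or 4. Over all genes, in both directions, 1305 of 12339 passed with the block and 922 of 12327 with the correction added. Without pairs 1, 3, 4 and 5, 402, 606, 524 and 821 of 12339 passed. Without the block, 0 passed whichever library was left out. At an unadjusted p under 0.05 in limma without the block, 2 were higher (3.95% of all genes) and 0 lower (6.67% of all genes). The higher count was 1 with Xist as covariate, 19 with library weights and 14 with the block (12.4% of all genes). It was 5 with the block and the correction, 4, 8, 11 and 14 with the block without pairs 1, 3, 4 and 5, and 2 to 5 with 1 library left out. The lower count was 1 with equal-sum (TPM) scaling, with the correction, with library weights and with the block (16% of all genes with the block). It was 6 with the block and the correction, 3, 1 and 1 with the block without pairs 1, 3 and 4, and 0 to 1 with 1 library left out. The share of all genes at an unadjusted p was not taken for the other settings, so their counts are no result about the members. The Nfe2l2 difference passed with the block (-0.50), with the block and the correction (-0.56) and with the block without pair 3 (-0.60), and was -0.59 to -0.38 with 1 library left out. The members' median was 0.03 to 0.14 with 1 library left out, and equal-sum scaling put it at 0.06 with all genes at -0.03. Of the 43 named members, 15 changed sign under at least 1 of 24 settings. With all 4 pairs, the block changed the call of no member beside Txnip and Sesn2. Causes were not tested, and depth is unknown.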
